A study of Arabidopsis thaliana with 6 samples.

Results

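The 10 fasciclin-like arabinogalactan protein (FLA) genes FLA1 (AT5G55730), FLA2 (AT4G12730), FLA4 (AT3G46550), FLA6 (AT2G20520), FLA7 (AT2G04780), FLA8 (AT2G45470), FLA9 (AT1G03870), FLA10 (AT3G60900), FLA11 (AT5G03170) and FLA13 (AT5G44130) were taken from the 24379 genes of an RNA-seq table of Arabidopsis roots by their locus identifiers. No threshold on expression was part of the choice, but the list was drawn up with earlier results of these data known. The study treated 7-day-old wild type Col-0 seedlings, grown hydroponically in dilute nutrient solution, with 25 µM AlCl3 for 3 h (Al) or left them without Al (control), to look for genes of the root tip that respond to Al. RNA came from about 0.5 cm of root tip per the study's methods, while the sample labels say only roots. There were 3 Al and 3 control samples, all of the same wild type background, and expression was given as FPKM (fragments scaled to transcript length and to the number of mapped fragments), which can be set side by side between genes. The labels do not say whether replicates were separate cultures, so p-values measure the spread between these samples.

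FLA proteins are secreted cell surface glycoproteins. They carry 1 or more fasciclin domains, a fold known for cell adhesion in animals, next to stretches that are decorated with arabinogalactan sugars, and many are held at the plasma membrane by a glycosylphosphatidylinositol anchor. In plants they are known for roles at the boundary of plasma membrane and cell wall, in root growth under salt stress and in the walls of xylem and fibres. FLA1 is known from shoot regeneration in culture, FLA4 (also named SOS5) from the root tip swelling of its mutant under salt, and FLA11 from the secondary walls of stems. For the other members the description here rests on sequence and expression.

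In the TAIR10.1 annotation the 10 genes lie on all 5 chromosomes, and the longest transcript of 9 of them has a single exon, that of FLA1 having 2. They fall into short and long coding sequences. FLA6, FLA9 and FLA13 have coding sequences of 744 bases, FLA11 of 741 bases and FLA7 of 765 bases, whereas FLA2 (1212 bases), FLA4 and FLA8 (1263 bases each), FLA10 (1269 bases) and FLA1 (1275 bases) are longer. The members most alike in coding sequence were FLA8 (chr2:18742477-18744322, minus strand) and FLA10 (chr3:22499292-22501239, minus strand), with 84.0% identity over 1244 aligned bases, and FLA9 (chr1:982381-983544, minus strand) and FLA13 (chr5:17760865-17762089, plus strand), with 78.5% identity over 735 aligned bases. Sequences are shown for these pairs because reads from a shared stretch could be given to either gene. FLA8 (chr2:18743355-18743407, minus strand) and FLA10 (chr3:22500134-22500186, minus strand) share this longest run of identical coding bases, 53 bases long:
FLA8 and FLA10: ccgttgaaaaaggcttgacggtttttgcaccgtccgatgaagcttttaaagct
Apart from this run the genes can be told apart, since 0.223% of the 50-base stretches of the FLA8 transcript and 0.211% of those of FLA10 occurred in the other gene and none of the other 8 members shared any. The most alike ungapped window of 120 coding bases of FLA9 (chr1:983041-983160, minus strand) and FLA13 (chr5:17761327-17761446, plus strand) held 14 differences, marked in capitals:
FLA9: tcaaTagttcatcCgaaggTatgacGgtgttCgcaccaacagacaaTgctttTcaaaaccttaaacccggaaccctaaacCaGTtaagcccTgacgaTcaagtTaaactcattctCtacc
FLA13: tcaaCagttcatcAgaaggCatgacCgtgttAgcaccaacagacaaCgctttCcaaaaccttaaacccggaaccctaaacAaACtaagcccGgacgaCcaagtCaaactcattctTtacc

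Transcripts of 6 of the 10 FLA genes were lower in Al roots than in control roots, and 1 was higher. FLA9, FLA1, FLA10, FLA8 and FLA4 were lower with all Al samples below all control samples, as was FLA6, a gene of very low level, while FLA7 was higher and became the most abundant member. FLA2, FLA11 and FLA13 did not pass the test. Genes were tested with limma on log2(FPKM + 1), Benjamini-Hochberg adjusted over the 18463 genes that reached 1 FPKM in 3 or more samples, and called at an adjusted p of 0.05. Among all tested genes, 38.5% were called lower and 21.3% higher, 59.8% in either direction, so most tested genes changed and a call by itself sets no member apart. The split over all genes depended on scaling, with 3933 higher and 7106 lower here and 5397 higher and 4971 lower after median-ratio scaling, while the calls of these 7 FLA genes did not change with it. The median log2 fold change over all tested genes was -0.13, over the 10 members -0.72, and over the 9 members without FLA6 -0.38. The groups did not overlap in 7 of the 10 members, 6 of them lower in Al roots, beside 66.3% of all tested genes without overlap and 42.9% without overlap and lower. Without FLA6 these counts were 6 of 9 members, 5 of them lower. By size, 5 of the 10 members were called lower with a log2 fold change of -1 or less (4 of 9 without FLA6), beside 2.88% of all tested genes. These counts hold for the loci listed, which were chosen with earlier results of these data known, so they are no test of the family. Of the 6 other FLA genes that were tested 0 were called lower by limma, none of them at an unadjusted p under 0.05 either. In these bulk samples, fewer cells of a type and less RNA per cell cannot be told apart.

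**Figure D1:**
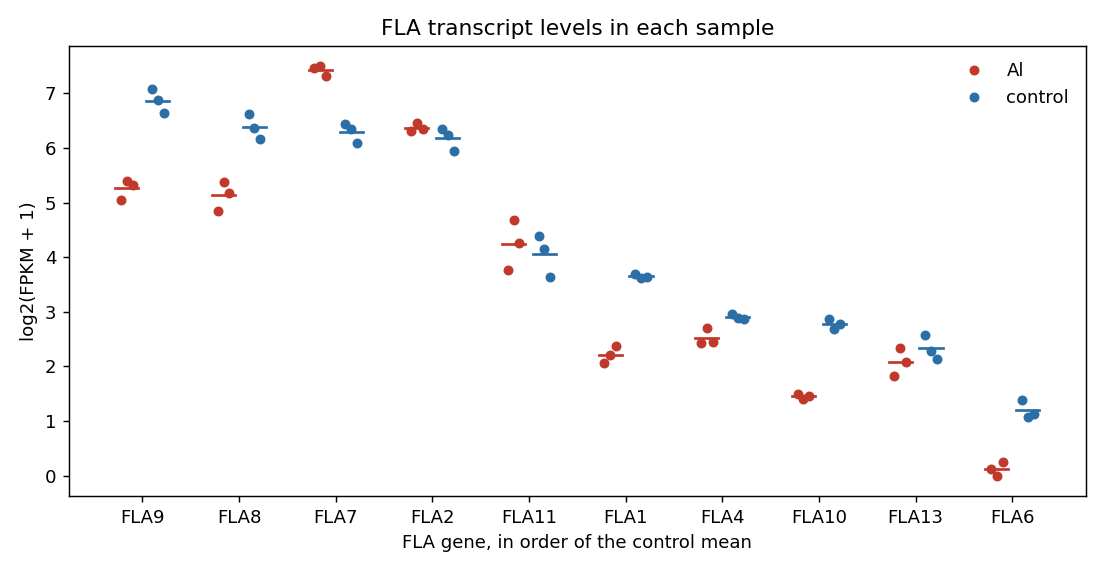
FPKM of the 10 FLA genes in each sample, Al samples left of control samples, on a log axis. FLA7 sits between 158.2 and 178.9 FPKM in Al samples and between 67.2 and 85.7 FPKM in control samples, while FLA9 sits between 32.1 and 41.3 FPKM in Al samples and between 98.0 and 133.4 FPKM in control samples.

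FLA9 had the largest fall in FPKM and on the log2(FPKM + 1) scale. Its FPKM was 32.1, 41.3 and 39.01 in the Al samples, against 133.4, 117.1 and 98.0 in the control samples. Every Al sample was below every control sample, and the Al mean of 37.5 ± 4.77 FPKM was 0.323 times the control mean of 116.2 ± 17.7 FPKM (SD, n = 3 each). In limma the log2 fold change was -1.60 (SE 0.12, Benjamini-Hochberg adjusted p = 6.70e-06). FLA9 was the most abundant of the 10 genes in control roots. As a ratio of Al mean to control mean, FLA6 (0.0718), FLA10 (0.297) and FLA1 (0.318) were lower still, and with a pseudocount of 0.1 the log2 fold changes were -2.97 for FLA6, -1.69 for FLA10, -1.63 for FLA1 and -1.63 for FLA9.

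FLA8 and FLA10, the pair of long coding sequences, were both lower although they differ in level. FLA8 had 27.7, 40.7 and 35.2 FPKM in the Al samples, against 97.2, 81.2 and 71.0 FPKM in the control samples. FLA10 had 1.83, 1.66 and 1.74 FPKM in the Al samples, against 6.30, 5.46 and 5.83 FPKM in the control samples. Neither gene's groups overlapped. The log2 fold change in limma was -1.25 (SE 0.15, adjusted p = 9.44e-05) for FLA8 and -1.32 (SE 0.095, adjusted p = 4.49e-06) for FLA10. The ratio of FLA8 to FLA10 was 15.1, 24.5 and 20.2 in the Al samples, against 15.4, 14.9 and 12.2 in the control samples, and these ranges overlapped (exact permutation test, two-sided, p = 0.2).

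FLA9 and FLA13, the pair of short coding sequences, differed in their calls, FLA9 being called lower and FLA13 not called. FLA13 had 2.54, 4.08 and 3.21 FPKM in the Al samples, against 4.96, 3.87 and 3.4 FPKM in the control samples. The groups overlapped, and FLA13 did not pass the test (log2 fold change -0.25, SE 0.16, limma adjusted p = 0.194). The ratio of FLA9 to FLA13 was 12.6, 10.1 and 12.2 in the Al samples, against 26.9, 30.3 and 28.8 in the control samples. All Al ratios were below all control ratios, with a difference of -1.30 in log2 ratio (exact permutation test, two-sided, p = 0.1, the smallest that 3 against 3 samples allow). Adjusted over the 2 pairs compared, which were chosen by coding identity after the levels had been seen, both p-values were 0.2. A threshold of 0.05 could not be passed with 3 against 3 samples, so this test decides neither difference.

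FLA7, a short member, was the only one of the 10 called higher. It had 174.8, 178.9 and 158.2 FPKM in the Al samples, against 85.7, 79.9 and 67.2 FPKM in the control samples. The lowest Al sample was well above the highest control sample, and the Al mean of 170.6 ± 10.98 FPKM was 2.20 times the control mean of 77.6 ± 9.47 FPKM (SD, n = 3 each). Its log2 fold change in limma was 1.13 (SE 0.094, adjusted p = 1.13e-05). FLA7 lies at chr2:1676717-1678455 on the plus strand and has 2 annotated transcripts, which a value per gene does not separate.

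FLA1, known from shoot regeneration, was at a moderate level and varied little among the control samples. It had 3.17, 3.64 and 4.21 FPKM in the Al samples, against 11.9, 11.2 and 11.4 FPKM in the control samples. The highest Al value lay below every control value by a wide margin. The means were 3.67 ± 0.521 FPKM in Al roots and 11.5 ± 0.365 FPKM in control roots (SD, n = 3 each), with a log2 fold change of -1.43 (SE 0.10, limma adjusted p = 3.81e-06). FLA1 (chr5:22558044-22560541, minus strand) also has 2 annotated transcripts.

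FLA4 fell by less. It had 4.39, 5.49 and 4.48 FPKM in the Al samples, against 6.74, 6.43 and 6.33 FPKM in the control samples. The groups did not overlap, the log2 fold change was -0.38 (SE 0.10, limma adjusted p = 0.00924), and in the fit with a replicate block and a correction for GC content the adjusted p was 0.0586. FLA4 lies at chr3:17136346-17138259 on the minus strand.

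FLA6 (chr2:8840557-8841565, plus strand) was at 0.09, 0 and 0.19 FPKM in the Al samples, against 1.60, 1.12 and 1.18 FPKM in the control samples. It passed the filter on low values only through its control samples, so its call carries less weight than the others (log2 fold change -1.07, SE 0.13, limma adjusted p = 0.000117). A fragment count, estimated from how far apart small FPKM values lie, at about 21700000 to 21950000 fragments per sample, gave 2, 0 and 4 fragments in the Al samples, against 34, 24 and 25 in the control samples. The sums of 6 and 83 fragments gave a ratio of 0.0723 (exact 95% interval 0.0258 to 0.164, covering counting error only). On the log2(FPKM + 1) scale the fold is understated for a gene this low, and with a pseudocount of 0.1 the log2 fold change was -2.97.

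FLA2 and FLA11 had overlapping groups. FLA2 (chr4:7491227-7493080, minus strand) had 78.6, 86.6 and 80.2 FPKM in the Al samples, against 80.8, 74.7 and 60.4 FPKM in the control samples, and its log2 fold change of 0.19 (SE 0.10, limma adjusted p = 0.131) did not pass the test. FLA2 passed it under 3 alternatives, with an adjusted p of 0.0266 after median-ratio scaling, 0.0167 with a block and GC correction, and 0.0437 without control replicate 1. FLA11 (chr5:752750-753657, minus strand), the secondary wall member, had 12.7, 24.7 and 18.3 FPKM in the Al samples, against 19.9, 16.8 and 11.4 FPKM in the control samples. The groups overlapped over most of the control range, Al replicate 2 being the highest of all 6 samples, and the log2 fold change was 0.19 (SE 0.24, limma adjusted p = 0.521). FLA11 overlaps AT5G03160 on the opposite strand, and whether the counting used strand is not given in the sources used here, so its values are uncertain. Calls in both directions therefore occurred among the short members, with FLA7 higher and FLA9 and FLA6 lower, while the long members FLA1, FLA4, FLA8 and FLA10 were lower and FLA2 was not called.

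**Figure D2:**
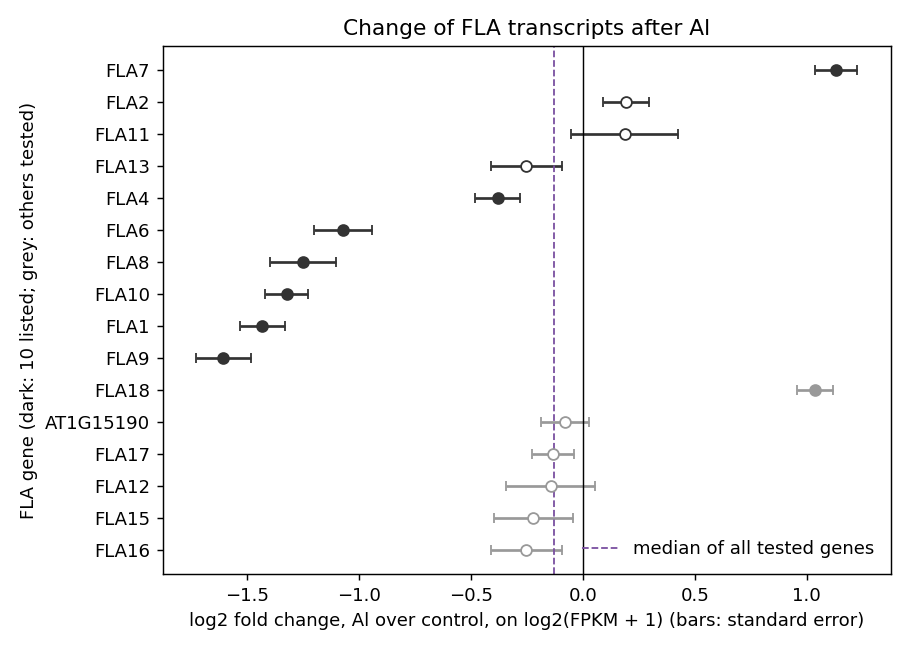
Log2 fold change of each FLA gene, Al over control, on the log2(FPKM + 1) scale from limma, the 10 genes in dark and 6 other FLA genes in grey, with bars giving 1 SE and filled points marking genes called at an adjusted p of 0.05. FLA7 stands at 1.13 and FLA9 at -1.60, with the median of all tested genes at -0.13.

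The order of levels differed between the conditions. In Al roots FLA7 was first, followed by FLA2 at 81.8 ± 4.25 FPKM, by FLA9 and FLA8, whose samples overlapped, and then by FLA11, FLA4, FLA1, FLA13, FLA10 and FLA6, with FLA1 and FLA13 overlapping. In control roots FLA9 was first, followed by FLA8, FLA7 and FLA2, each overlapping the next, then by FLA11 and FLA1, which overlapped, and by FLA4, FLA10, FLA13 and FLA6. These overlaps are between different samples. Within each control sample the order FLA9, FLA8, FLA7 and FLA2 was kept, and within each Al sample FLA9 was above FLA8. The summed level of the 10 genes was 337.9, 387.2 and 344.7 FPKM in the Al samples, against 448.6, 397.7 and 336.1 FPKM in the control samples. These sums overlapped, with means of 356.6 ± 26.7 FPKM in Al roots and 394.1 ± 56.3 FPKM in control roots. Without FLA7, left out after its rise had been seen, the other 9 genes summed to 163.1, 208.2 and 186.5 FPKM in the Al samples, against 362.8, 317.9 and 268.9 FPKM in the control samples, with no overlap. Leaving out the only member called higher favours this outcome, so the sum is a description and was not tested.

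As a share of the summed FPKM of the 10 genes, FLA7 made up 51.7%, 46.2% and 45.9% in the Al samples, against 19.1%, 20.1% and 20.0% in the control samples. FLA9 made up 9.51%, 10.7% and 11.3% in the Al samples, against 29.7%, 29.5% and 29.2% in the control samples. FLA8 averaged 9.64% in Al roots and 21.1% in control roots, and FLA2 averaged 23.0% in Al roots and 18.2% in control roots. Shares cannot move alone, so the higher share of FLA2 stands beside an FPKM that did not pass the test. FLA11 made up 3.74%, 6.39% and 5.30% in the Al samples, against 4.43%, 4.22% and 3.38% in the control samples, and these shares overlapped. Among these 10 genes the sum was led by FLA7 in Al roots and spread over FLA9, FLA8, FLA7 and FLA2 in control roots.

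**Figure D3:**
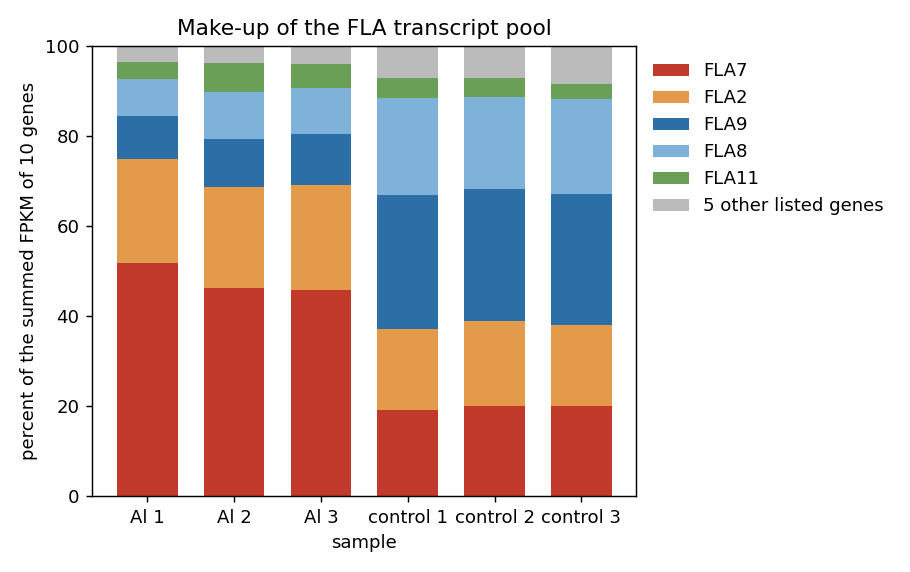
Share of each FLA gene in the summed FPKM of the 10 genes, in percent, 1 stacked bar per sample with Al samples left of control samples and 5 low genes joined in grey. FLA7 takes 45.9% to 51.7% of the sum in Al samples and 19.1% to 20.1% in control samples.

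The 250 bases before the annotated gene start are shown for FLA7, the member that rose, and for FLA9 and FLA1, which had the lowest log2 fold changes on the log2(FPKM + 1) scale, from the TAIR10.1 genome and 5′ to 3′ on each gene's own strand. They are chr2:1676467-1676716 (plus strand) for FLA7, chr1:983545-983794 (minus strand) for FLA9 and chr5:22560542-22560791 (minus strand) for FLA1. Capitals mark the W-box core TTGAC, the letters that WRKY transcription factors are known to bind, searched on both strands:
FLA7: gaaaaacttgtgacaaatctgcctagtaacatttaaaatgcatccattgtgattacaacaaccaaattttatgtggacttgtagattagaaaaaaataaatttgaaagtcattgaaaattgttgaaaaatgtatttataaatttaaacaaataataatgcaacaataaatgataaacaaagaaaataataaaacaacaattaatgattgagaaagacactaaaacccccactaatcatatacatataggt
FLA9: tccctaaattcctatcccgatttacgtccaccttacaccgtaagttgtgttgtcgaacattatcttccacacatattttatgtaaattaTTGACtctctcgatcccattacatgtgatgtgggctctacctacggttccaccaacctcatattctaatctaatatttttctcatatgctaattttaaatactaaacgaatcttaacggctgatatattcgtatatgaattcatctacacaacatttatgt
FLA1: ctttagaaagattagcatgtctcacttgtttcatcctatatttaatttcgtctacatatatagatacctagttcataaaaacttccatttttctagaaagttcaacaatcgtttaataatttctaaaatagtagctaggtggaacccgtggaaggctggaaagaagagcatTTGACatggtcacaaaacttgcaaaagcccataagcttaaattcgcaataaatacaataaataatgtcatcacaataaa
The core stood 161 to 157 bases before the start of FLA9 and 79 to 75 bases before that of FLA1, and it was not in the FLA7 window. Of the 10 members, 4 (FLA1, FLA6, FLA9 and FLA10) held it, beside 45.9% of the 18385 windows of tested genes that were read. The G-box CACGTG and the CGCG box CGCGT, the core letters bound by CAMTA factors, were in 0 of the 10 windows, beside 7.16% and 7.52% of all windows. TATAAA was in 5 of the 10 windows, FLA7 included, beside 46.4% of all. A match is a description of letters and not a site in use.

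The remaining FLA genes give the rest of the family. Of 11 further loci, 10 were in the table and 6 passed the filter, with 1 called higher and 0 called lower by limma (0 lower also at an unadjusted p under 0.05). Expression of FLA14 was not analysed here. FLA18 was the gene called higher, with 62.1, 57.8 and 54.0 FPKM in the Al samples, against 30.2, 27.5 and 25.6 FPKM in the control samples, and no overlap. Its log2 fold change was 1.04 (SE 0.081, limma adjusted p = 7.46e-06), close to that of FLA7. Its nearest relative by coding sequence, FLA17 (83.0% identity), had 20.8, 22.6 and 20.4 FPKM in the Al samples, against 26.2, 23.7 and 20.5 FPKM in the control samples (adjusted p = 0.248). FLA12, known like FLA11 from stem secondary walls, FLA15, FLA16 and AT1G15190, annotated as a family member, had log2 fold changes of -0.14, -0.22, -0.25 and -0.08 and did not pass the test (adjusted p = 0.560, 0.305, 0.200 and 0.548). FLA15, FLA16 and FLA17 passed it as lower when control replicate 3 was left out (log2 fold changes -0.42, -0.45 and -0.22, adjusted p = 0.0241, 0.00763 and 0.0489). FLA3, FLA20 and FLA21 were at 0.04 FPKM or below in every sample, and FLA5 gave 2, 3 and 5 estimated fragments in the Al samples, against 0, 0 and 1 in the control samples. In these roots the family was thus represented by 16 genes that passed the filter, of which 2 were called higher and 6 lower. Beside this, 21.3% of all tested genes were called higher and 38.5% lower.

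FLA4 is known to act in root growth with the receptor-like kinases FEI1 and FEI2, and galactosyltransferases that start arabinogalactan sugar chains belong to the same genetic pathway. Of the 4 genes on this list, 3 were called lower and 0 higher by limma, and 0 were higher at an unadjusted p under 0.05. A lower call was common, at 38.5% of all tested genes, and a joint change of the pathway was not tested. FEI1 had 24.5, 23.9 and 19.6 FPKM in the Al samples, against 31.0, 31.4 and 32.3 FPKM in the control samples (log2 fold change -0.47, SE 0.088, adjusted p = 0.00152). FEI2 had 6.09, 6.93 and 6.35 FPKM in the Al samples, against 9.65, 9.98 and 9.58 FPKM in the control samples (log2 fold change -0.53, SE 0.082, adjusted p = 0.000523). Neither kinase had overlapping groups. AT1G74800, a galactosyltransferase of arabinogalactan proteins, had a log2 fold change of -0.31 (adjusted p = 0.0136), and its relative GALT2 had one of -0.07 (adjusted p = 0.559). The call of AT1G74800 was lost after median-ratio scaling (adjusted p = 0.0729), with a block and GC correction (0.131), with a block and length correction (0.197) and without control replicate 2 (0.0515).

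In the wider set of arabinogalactan glycosyltransferases, 1 of 13 tested genes was called higher and 4 lower (median log2 fold change 0.04). Over all tested genes 21.3% were called higher and 38.5% lower, so these counts do not show a change particular to the list. The fucosyltransferase gene FUT4 was higher, at 48.7, 46.0 and 40.2 FPKM in the Al samples, against 24.7, 26.1 and 25.4 FPKM in the control samples (log2 fold change 0.80, limma adjusted p = 3.51e-05). FUT6, another fucosyltransferase gene, was lower (-0.35, adjusted p = 0.00203), as was AT3G06440, a galactosyltransferase family gene (-0.84, adjusted p = 7.98e-05). After median-ratio scaling 3 genes of the list were called higher and 2 lower, beside 5397 higher and 4971 lower of the 18433 genes tested then.

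Arabinogalactan proteins without a fasciclin domain gave a different count. Of the classical and lysine-rich genes, 4 of 9 tested were higher and 2 lower (median log2 fold change 0.39), and of the short arabinogalactan peptides 5 of 9 were higher and 3 lower (median 1.08). The shares over all tested genes were 21.3% higher and 38.5% lower. AGP2 had 869.4, 813.9 and 776.5 FPKM in the Al samples, against 48.8, 45.5 and 29.9 FPKM in the control samples (log2 fold change 4.30, limma adjusted p = 4.91e-08), and AGP10 and AGP1 had log2 fold changes of 3.03 and 2.47 (adjusted p = 6.02e-08 and 5.60e-07). AGP4 was lower (-1.69, adjusted p = 2.54e-07). Among the peptides AGP15, AGP12, AGP16 and AGP21 were higher, with log2 fold changes of 3.01, 2.81, 1.18 and 1.08 (adjusted p = 1.69e-07, 6.44e-08, 3.16e-07 and 1.34e-05). Both kinds together summed to between 2320 and 2665 FPKM in the Al samples, against 768 to 1011 FPKM in the control samples, whereas the summed FPKM of the 10 FLA genes overlapped between the conditions. The difference between the FLA genes and these lists was not tested.

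**Figure D4:**
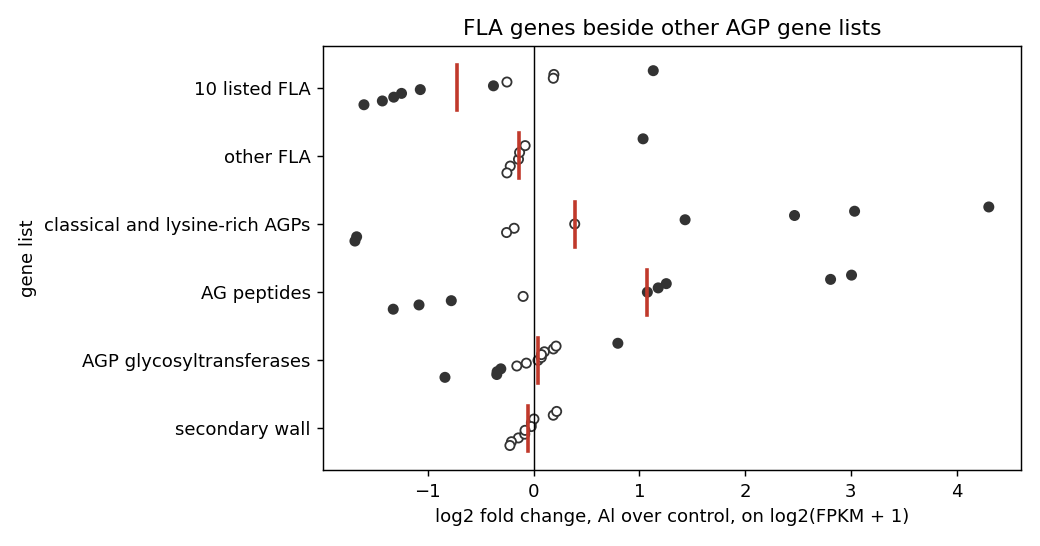
Log2 fold changes, Al over control, on the log2(FPKM + 1) scale for the FLA genes and the related lists, one point per tested gene with filled points called by limma and bars at each list's median. The median is -0.72 for the 10 FLA genes, 0.39 for classical and lysine-rich genes and 1.08 for the peptides.

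Samples of a condition also differed in a shared way. In 6 of the 10 FLA genes, FLA11 and FLA13 included, Al replicate 2 was the highest and Al replicate 1 the lowest of the Al samples while control replicate 1 was the highest and control replicate 3 the lowest of the control samples. This order, noticed after the values had been seen, was found in 755 of 18463 tested genes (4.09%). It was also found in 9 of 10 genes of a secondary wall list, the xylem cellulose synthases CESA4 and CESA8 among them. The xylem cellulose synthase CESA7 of that list differed, with control replicate 2 the lowest control sample. Of the 10 genes of that list 0 were called by limma, beside 59.8% of all tested genes called in either direction, and 0 had an unadjusted p under 0.05. The list summed to 82.4, 116.5 and 101.6 FPKM in the Al samples, against 120.1, 94.8 and 82.6 FPKM in the control samples. Within each condition, though not over all samples together, FLA11 had the same order of samples as these sums. The part of xylem content in the FLA values was not tested.

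**Figure D5:**
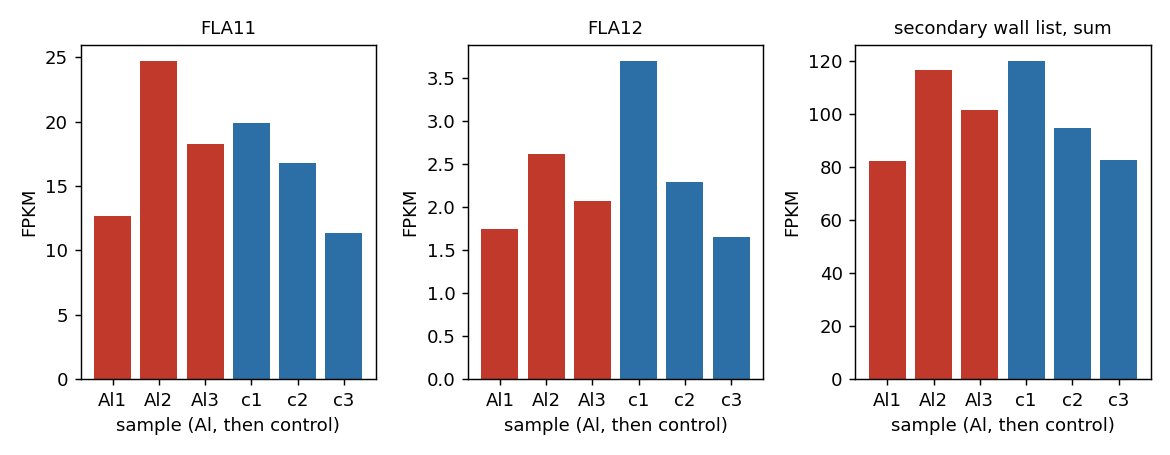
FPKM of FLA11, of FLA12 and the summed FPKM of the secondary wall list in each sample, Al samples left of control samples. FLA11 is lowest in Al replicate 1 (12.7 FPKM) and control replicate 3 (11.4 FPKM), and the list's sum is 82.4 and 82.6 FPKM in the same samples.

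Markers of other cell types and of the treatment were read beside these results. The 9 root markers, chosen for epidermis, root hairs, meristem, cap, ground tissue and stele, summed to between 66.8 and 68.6 FPKM in the Al samples, against 96.1 to 98.9 FPKM in the control samples, and 6 of 8 tested were called lower, among them the epidermal genes GL2 (log2 fold change -1.57) and EXP7 (-1.62). Over all tested genes the share called lower was 38.5%. SCR, a ground tissue regulator, and SHR, a stele regulator, were not called (-0.12, limma adjusted p = 0.124, and 0.10, adjusted p = 0.251). The part of these cell types in the lower FLA values was not tested. The leaf markers LHCB1.1 and LHCB2.1 did not exceed 0.25 FPKM in any sample, and the leaf list summed to between 30.4 and 36.6 FPKM in the Al samples, against 38.3 to 44.5 FPKM in the control samples. Of the 4 leaf markers tested, 2 were called lower, PSBO1 (18.0 ± 0.578 FPKM in Al roots and 23.5 ± 1.54 FPKM in control roots, SD, n = 3 each) and RCA (7.11 ± 0.561 FPKM in Al roots and 11.7 ± 0.465 FPKM in control roots), with limma adjusted p-values of 0.00206 and 0.000188. RBCS1A lay between 4.51 and 8.90 FPKM over all samples and was not called, and the part of these transcripts in the FLA values was not tested. Of 6 genes known to respond to Al, 5 were called higher, beside 21.3% of all tested genes. These genes were picked for a known response, so the count describes the treatment and is not a test. ALMT1, the root malate channel, was at 13.1, 15.7 and 17.4 FPKM in the Al samples, against 0.47, 0.73 and 0.50 FPKM in the control samples. ALMT1 passed the filter on low values only through its Al samples. PGIP1, a cell wall polygalacturonase inhibitor, had a log2 fold change of 5.30.

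The genes whose levels followed FLA9 most closely outside the FLA family were CESA1, a cellulose synthase subunit of primary walls (Pearson's r = 0.9999 of log2(FPKM + 1) over the 6 samples), LUL4 (0.9995) and AT1G22330 (0.9992). High correlations arise easily where a treatment separates 3 samples from 3, and 1959 of the 18447 genes compared had an r of at least 0.95 with FLA9. That limit is looser than the values above, and how many genes came as close as these was not counted. The correlations describe this pattern and share its 6 samples.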

How the data were processed

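RNA-seq was done by the study on 3 Al and 3 control samples. The authors deposited one table of FPKM values per gene, normalised for transcript length and mapped fragments; the aligner, counter, strand setting and genome build are not given in the sources used here. Of 24174 genes found in both the table and TAIR10.1, 23857 had the same start and end. The table's 6 repeated FPKM columns were identical and not used, and the authors' log2 ratio, P and Q columns, which hold their own comparison, were not used.

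limma 3.58.1 (R 4.3.3; lmFit, eBayes with a mean-variance trend) was run on log2(FPKM + 1) for the 18463 genes that reached 1 FPKM in 3 or more samples, and tested on simulated data. Depth, estimated from the spacing of low FPKM values, was about 21700000 to 21950000 fragments per sample. At these depths 84.1% to 89.1% of low values lay within 0.15 of a whole fragment, against 30% by chance for a depth fixed in advance. The depths were chosen for closeness to whole fragments, so this share is no independent check. Named genes were all FLA genes, up to 4 called genes with the smallest adjusted p of each other list, FEI1 and FEI2, and the 3 genes most like FLA9; other genes named were GALT2, the defining markers and the secondary wall cellulose synthases. Members and lists were chosen with earlier results of these data known. Alternatives were pseudocount, filter, trend, replicate block, GC and length correction, scaling, a minimum fold and leaving out each sample; the pair ratios, the fragment estimates and the 9 members without FLA6 were added after seeing the data.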

Additional observations from a re-analysis of the deposited data

How the results depend on the processing

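Of the 16 alternatives run for most FLA genes (12 for FLA6, which gave no value where it failed the filter), FLA1, FLA6, FLA7, FLA8, FLA9, FLA10 and FLA18 kept their direction and their call in each, FLA9 ranging from -1.73 to -1.46 and FLA7 from 1.03 to 1.28 in log2 fold change. The members called higher numbered 2, with FLA2 added, after median-ratio scaling and with a replicate block and GC correction, and 1 to 2 with a replicate left out. Median-ratio scaling moved the median of all tested genes to 0.00079, beside -0.13 without it, and the calls over all genes to 5397 higher and 4971 lower, beside 3933 higher and 7106 lower without it. Reversed signs occurred in genes that were not called: FLA11 at -0.035 without Al replicate 2 and -0.026 without control replicate 3, ranging from -0.035 to 0.42 with a replicate left out, FLA12 at 0.081 without control replicate 1, ranging from -0.33 to 0.081, FLA17 at 0.0087 after median-ratio scaling, and AT1G15190 at 0.0048 with block and GC correction, 0.017 after median-ratio scaling and 0.00052 after quantile normalization. The cause was not tested.

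Without the filter on low FPKM, 2 other FLA genes and 2 glycosyltransferases were called higher. Called glycosyltransferases numbered 3 higher after median-ratio scaling and 3 after quantile normalization, and 2 lower after median-ratio scaling and with the block and length correction, which gave 4 lower classical genes. With a replicate left out, other FLA genes called lower ranged from 0 to 3, glycosyltransferases higher from 1 to 2 and lower from 2 to 4, classical genes lower from 2 to 4, and secondary wall genes higher from 0 to 1. Same-numbered samples did not deviate together across genes (correlations -0.25, -0.04 and -0.22). With 3 samples per group this cannot decide whether same-numbered samples were handled together, and the labels do not say. The replicate block alone kept 1 member higher and 6 lower. Depth limits FLA6 and the FLA genes below the filter, where a few fragments set the value.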
